A study of Mus musculus with 2 samples.

Results

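The genes described here encode the proteins of the cytoplasmic ribosome. They were chosen by symbol alone: Rpl or Rps followed by a number, with an optional letter, digit or final l, together with Rplp0, Rplp1, Rplp2 and Rpsa. The rule found 84 of the 31017 gene symbols in the table, 52 of them large-subunit (Rpl) and 32 small-subunit (Rps and Rpsa) genes. Of the 84, 83 had at least 1 unique molecular identifier (UMI, a tag that marks 1 captured transcript), and Rpl10l had none, which allows up to 3 UMIs.

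The data are single-cell RNA counts from mouse spleen. The labels name 2 samples aged 6 to 8 weeks, titled WAS660 and WT664, both carrying the label of the Wiskott-Aldrich Syndrome mouse model. WAS-KO mice lack the actin regulator WASP of blood cells, and the protocol speaks of WT or WAS-KO mice. All 7524 cell barcodes came in 1 table with no tie to either sample, so the table is treated as 1 pooled sample, the genotypes were not compared, and no p-value is given.

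A ribosome has a small subunit, which reads the messenger RNA, and a large subunit, which joins the amino acids. Most ribosomal protein transcripts begin with a terminal oligopyrimidine (TOP) stretch of C and T bases, through which growth signals set how strongly they are translated. Resting lymphocytes are small cells with little cytoplasm, plasma cells secrete antibody, and maturing red cells and neutrophils wind down much of their RNA.

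The unequal members with a listed start, and Rps27, are shown first, as 30 bases around their RefSeq start site (15 before and 15 from the start on, gene's strand, GRCm38.p6). Capitals mark the longest run of at least 6 bases that are each C or T. Rps9, Rpl12 and Rpl37 were unequal in neutrophils, Rpl7l1 in T cells, and Rps27 and Rps27l form a pair of near copies whose balance differed between cell types.
Rps9: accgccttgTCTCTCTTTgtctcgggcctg
Rpl12: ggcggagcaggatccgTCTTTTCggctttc
Rpl37: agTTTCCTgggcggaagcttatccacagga
Rps27: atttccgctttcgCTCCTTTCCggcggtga
Rps27l: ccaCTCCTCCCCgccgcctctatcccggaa
Rpl7l1: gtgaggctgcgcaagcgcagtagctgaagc
The windows lie at chr7:3704026-3704055 for Rps9, chr2:32961697-32961726 for Rpl12, chr15:5116598-5116627 for Rpl37, chr3:90213634-90213663 (minus strand) for Rps27, chr9:66946071-66946100 for Rps27l and chr17:46782642-46782671 (minus strand) for Rpl7l1. The run spans the listed start in Rps9 and Rps27, follows it in Rpl12 and ends before it in Rpl37 and Rps27l, while Rpl7l1 has none of that length. Of the 64 members with a listed start, 35 (54.7%) held a C or T run of at least 6 bases, against 29.0% of the 19407 genes of the table with a start. A run of at least 8 bases was found in 25 members (39.1%) and in 11.8% of all genes. On the opposite strand, where such a run reads as A and G, the shares were 7.81% and 31.3%. A match describes these letters and is not a measured start or a site of control.

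Cells were kept with at least 200 detected genes and at most 10% of UMIs from mitochondrial (mt-) genes, which left 6588 cells with a median of 5339 UMIs (500 to 129686). Lineage gates used raw markers and no ribosomal protein gene: a cell needed UMIs from at least 3 markers of 1 lineage and from at most 1 marker of every other. This placed 3918 cells, 2326 of them B cells and 746 T cells. Small gates (8 plasma cells, 45 monocytes) were also drawn more widely, requiring a lead of at least 2 markers over every other lineage, after the gate sizes had been seen. That wider gate held 50 plasma cells, 140 monocytes and 167 neutrophils. Scrublet called 137 kept cells doublets, 126 of which were outside every gate. They were kept unless stated. Since the gates are made of these markers, the markers are no separate check of the cells' identity.

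Ribosomal protein transcripts made up 21.8% of all UMIs, and their share differed widely between cell types. T cells stood highest among the gates with at least 50 cells, at 33.3% of UMIs (33.28 to 33.36). B cells followed at 26.1% (26.07 to 26.11). Macrophages held 17.6% (17.5 to 17.7), monocytes 18.0% (17.9 to 18.1) and NK cells 16.1% (16.0 to 16.2). The gated macrophages were shallow, at a median of 799 UMIs against 5044 in B cells, and haemoglobin took 7.43% of their UMIs. Neutrophils held 5.13% (5.02 to 5.24) and erythroid cells 2.12% (2.10 to 2.15). In the wider gates erythroid cells held 8.48% and macrophages 11.5%, where haemoglobin took 60.6% and 35.6% of UMIs. These are exact binomial 95% intervals on summed UMIs and cover counting error only.

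Single cells overlapped between neighbouring types. The middle 90% of T cells ran from 18.9% to 43.0%, with a median of 33.6%. In B cells the range was 14.6% to 35.4% around a median of 25.2%, so many cells of both types had the same share. The neutrophil range, 2.35% to 8.13% with a median of 4.20%, lay below the whole 5th to 95th percentile range of B, T and NK cells and macrophages. Conventional dendritic cells, the antigen-presenting cells of the spleen, held 28.4% but numbered 9.

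**Figure D1:**
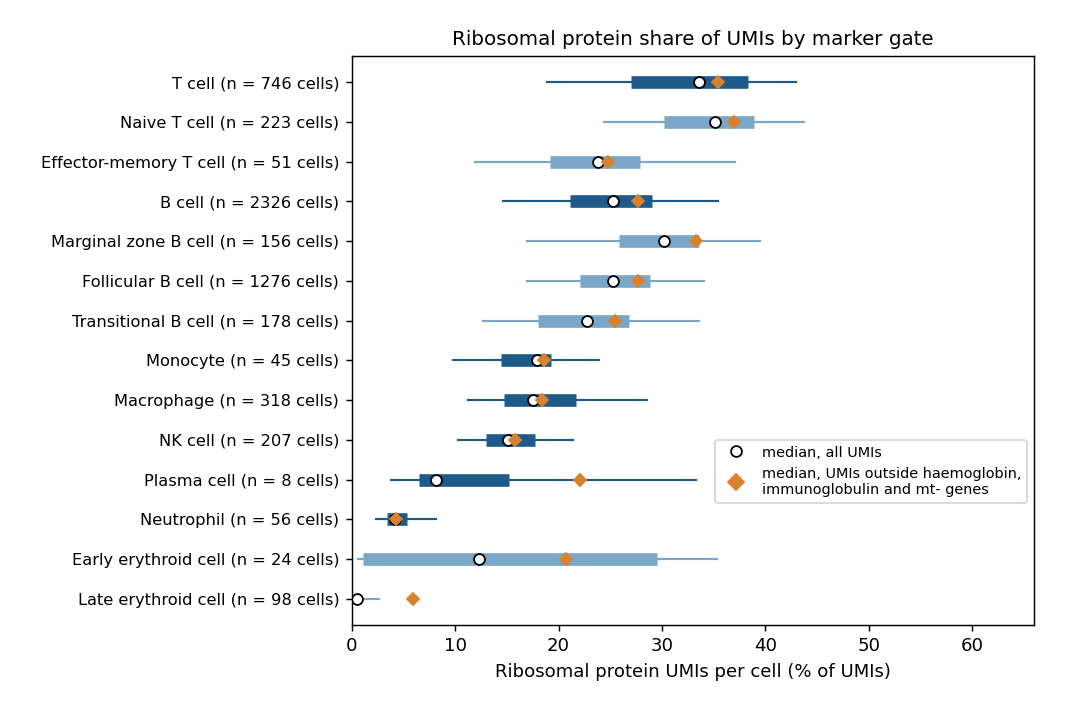
Ribosomal protein share of the UMIs of each cell, in percent, by gate. White circles are cell medians, thick bars the 25th to 75th and thin lines the 5th to 95th percentiles, and orange diamonds the medians over UMIs outside haemoglobin, immunoglobulin and mt- genes. T cells sit highest (median 33.6%), neutrophils (4.20%) and late erythroid cells (0.507%) lowest, and the diamond moves far from the circle in plasma and erythroid cells.

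Part of this order depends on what else fills the cell. Haemoglobin took 83.4% of erythroid UMIs and immunoglobulin 52.0% of the UMIs of the 8 plasma cells. Over UMIs outside haemoglobin, immunoglobulin and mt- genes, the ribosomal protein share was 13.4% in erythroid cells and 21.9% in plasma cells. The same change moved T cells to 35.2%, B cells to 28.7% and neutrophils to 5.25%. Depth moved with the share as well. With cells divided into 4 equal groups by UMIs, the median share of B cells went from the shallowest to the deepest group from 22.9% to 28.9%, and that of T cells from 27.2% to 37.4%. In NK cells it went from 13.1% to 17.5%. Macrophages had 17.4% and 17.0% at the ends, and erythroid cells 2.03% and 0.551%. The part of depth in these values was not tested: thinning cells to 1000 UMIs weights cells equally and leaves the expected share of each cell as it was.

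Within the T cells, the summed ribosomal protein share differed between the naive and the effector-memory gate. Naive T cells, gated on markers that include Ccr7, Lef1 and Igfbp4, held 35.1% (223 cells), and effector-memory T cells, gated on S100a4, Ccl5, Cxcr3, Cxcr6, Id2 and Nkg7, held 25.01% (51 cells). Their median depths were close, at 6175 and 5854 UMIs. Single cells overlapped, with 5th to 95th percentiles of 24.4% to 43.7% in naive and 11.9% to 37.1% in effector-memory cells. CD8 T cells stood at 36.1% (175 cells, median 8162 UMIs) and CD4 T cells at 32.2% (411 cells, median 6374 UMIs). Among the B cells, the marginal zone gate, which holds the blood-facing B cells of the spleen, reached 30.3% (156 cells, median 8063.5 UMIs). Follicular B cells held 26.0% (1276 cells, median 4952.5 UMIs) and transitional B cells, the recent arrivals from bone marrow, 23.9% (178 cells).

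The balance between subunits shifted less than the total. Small-subunit transcripts made up 46.6% of ribosomal protein UMIs in B cells and 47.2% in T cells. The share was 45.3% in NK cells, 44.7% in macrophages, 48.2% in neutrophils (47.1 to 49.3) and 43.2% in erythroid cells (42.7 to 43.7). The lowest value, 40.1% (39.0 to 41.2), was in the 98 late erythroid cells.

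Most members kept their place within the ribosomal protein pool from one cell type to the next. Each member's share of all ribosomal protein UMIs was compared with its mean over the 6 gates of at least 50 cells, each gate weighing equally. Of 81 members with at least 20 UMIs expected in some gate, 6 (7.41%) lay past 2-fold of their mean in at least 1 gate. As background, 7 of 77 mitochondrial ribosomal protein genes (9.09%) did so within their own pool, and 81.3% of 11108 genes did so as a share of all UMIs, a different denominator. Rpl37a, a large-subunit protein, was the steadiest, between 1.68% of the pool in erythroid cells and 1.99% in NK cells.

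**Figure D2:**
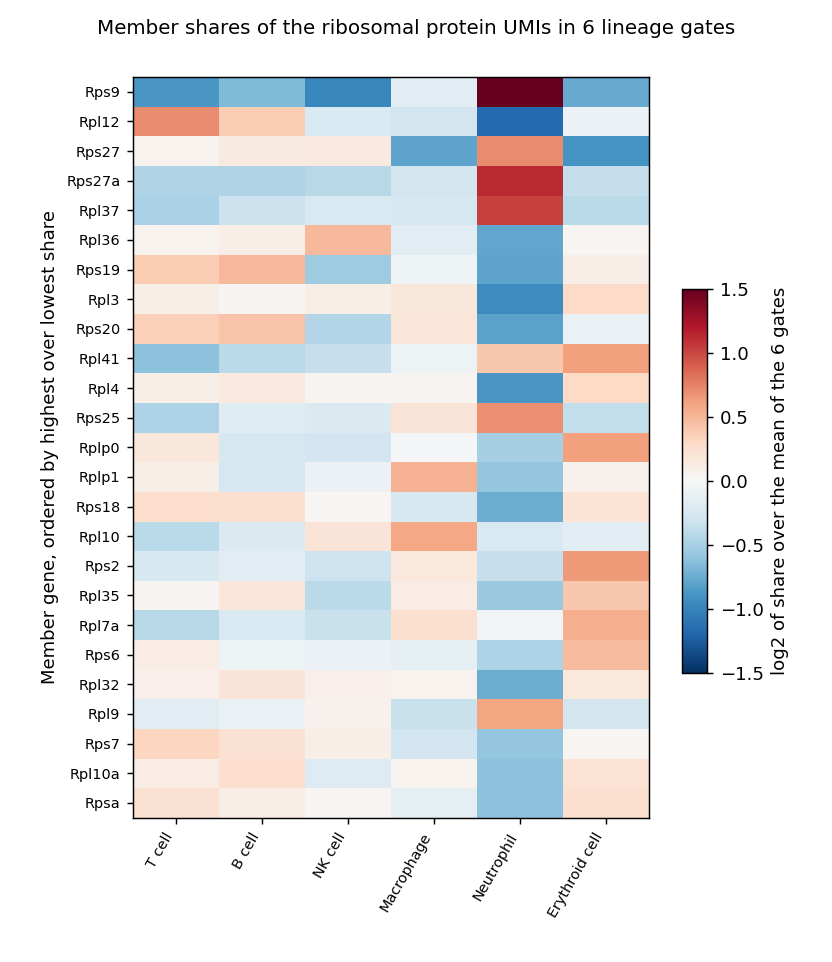
Share of each member in the ribosomal protein UMIs of 6 lineage gates, as log2 over the mean of the gates, for the 25 members with the widest span between gates among the 77 with at least 20 UMIs expected in every gate. Rows run from the widest span down. Colour is strongest in the neutrophil column, where Rps9 reaches 1.498 and Rpl12 lies at -1.17.

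Of the 6, 4 stood apart in neutrophils. Rps9, a small-subunit protein near the messenger RNA entry, made up 6.53% of the neutrophil pool (6.00 to 7.10, 518 UMIs). It held 2.07% in macrophages, 1.46% in B cells, 1.37% in erythroid cells, 1.27% in T cells and 1.18% in NK cells. Its share was 2.51% in the 45 monocytes, a gate too small to be among the 6. Its own level in neutrophils, 3353 CPM (UMIs per 1000000), was close to the 3813 CPM of B cells and the 3643 CPM of macrophages. In this main gate the rest of the pool was low, and Rps9 was not. In the wider gates all 81 members, Rps9 among them, were past 1.5-fold lower in neutrophils than in monocytes.

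Rps27a, which is made as a fusion with ubiquitin, was likewise high within the neutrophil pool of the main gate. It was 4.29% of the neutrophil pool (3.85 to 4.76) and between 1.44% and 1.62% in the other 5 gates. In the 45 monocytes, outside those gates, it was 2.23%, between the neutrophils and the rest. Rpl37, a zinc-binding large-subunit protein, made up 3.49% (3.10 to 3.92) in neutrophils, 1.22% to 1.46% in the other 5 gates and 1.49% in monocytes. Rpl12, which sits at the base of the stalk where elongation factors dock, went the other way. It was 0.454% of the neutrophil pool (0.318 to 0.628, 36 UMIs), 0.644% in monocytes, 0.844% in macrophages, 0.873% in NK cells, 0.959% in erythroid cells, 1.33% in B cells and 1.67% in T cells.

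These neutrophil values depended on which neutrophils were gated. In the main gate 98.2% of the 56 cells had Cxcr2, the receptor of mature neutrophils, and 10.7% had Ltf, a granule protein of their precursors. The deepest cell, which Scrublet called a doublet, gave 17.4% of the gate's ribosomal protein UMIs, and without it Rps9 was 7.52%, Rps27a 4.81%, Rpl37 3.77% and Rpl12 0.351%. In the wider gate of 167 cells Rps9 was 3.46% (3.33 to 3.58), Rps27a 3.35%, Rpl37 1.91% and Rpl12 0.503%. None of the 4 passed 2-fold there, but that mean was over 8 gates, with plasma cells and monocytes added. The calls of the main and the wider gate thus do not share a reference.

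The wider gate was divided after these values were seen. The 25 cells with Ltf and Camp but no Cxcr2 (median 18482 UMIs) had 2.20% Rps9 (2.03 to 2.39), 1.44% Rpl37 and 1.32% Rps27 in their pool. The 56 cells with Cxcr2 and no Ltf (median 2602.5 UMIs) had 5.44% Rps9 (5.01 to 5.91), 3.22% Rpl37 and 3.57% Rps27. Rps27a was closer, at 2.86% (2.66 to 3.07) in the first and 3.72% (3.35 to 4.11) in the second group, where Scrublet called 1 cell a doublet. The whole pool was 5.71% of UMIs in the first and 6.32% in the second, so Rps9, Rpl37 and Rps27 differed more than the total did. Rpl12 was 0.553% and 0.532%. The precursor-marked cells were much deeper, and the part of depth in this contrast was not tested.

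The other 2 unequal members were paralogues with low counts. Rps27l, a near copy of Rps27 that is induced by p53 in other settings, was 0.0380% of the T cell pool and 0.0545% of the B cell pool. It was 0.105% in NK cells, 0.182% in macrophages, 0.240% in neutrophils and 0.257% in erythroid cells. Rpl7l1, a relative of Rpl7 that takes part in assembling the large subunit, was 0.0148% of the T cell pool (256 UMIs) and 0.0251% of the B cell pool. Rpl7l1 was 0.0263% in NK cells, 0.0374% in macrophages (21 UMIs), 0.0350% in erythroid cells (14 UMIs) and 0.0504% in neutrophils (0.0137 to 0.129, 4 UMIs). Rps27l and Rpl7l1 were both called under all 9 settings tried, though the mean for Rpl7l1 rests in part on these few UMIs. Of the 8 settings with a neutrophil gate, Rps9 and Rps27a were called in 7, and Rpl12 and Rpl37 in 6.

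Set against its partner, Rps27l varied most among the paralogues with more than trace counts. It gave 1.47% of the UMIs of the Rps27 and Rps27l pair in T cells (1.36 to 1.59) and 1.98% in B cells (1.89 to 2.07). The share was 3.69% in NK cells, 5.62% in neutrophils (3.42 to 8.64), 11.3% in macrophages (9.35 to 13.6) and 16.3% in erythroid cells (13.5 to 19.4). Early erythroid cells had 15.9% (12.2 to 20.2) and late ones 16.3% (10.9 to 22.9). In the wider gates it was 24.3% (22.7 to 26.0) in the 50 plasma cells and 24.2% (22.8 to 25.7) in 239 erythroid cells, against 1.85% in T cells and 2.19% in B cells. The near copy thus held a low share in lymphocytes and a higher one in plasma, erythroid and phagocytic cells. Rps27 itself was 2.54% of the T cell and 2.70% of the B cell pool, 1.42% in macrophages and 1.32% in erythroid cells, but 4.02% in neutrophils.

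Rpl36al, a near copy of the X-linked Rpl36a, followed another order. It gave 20.1% of its pair in T cells, 20.7% in B cells and 21.6% in erythroid cells, against 33.5% in NK cells (30.7 to 36.4) and 33.8% in macrophages (29.9 to 38.0). Neutrophils of the main gate had 23.4% (12.3 to 38.0), from 11 UMIs of Rpl36al. In the wider gates it was 29.8% in NK cells, 28.5% in macrophages, 37.3% in monocytes, 38.2% (34.2 to 42.3) in neutrophils and 53.7% (51.5 to 55.9) in plasma cells, with 1113 UMIs of Rpl36al and 959 of Rpl36a. Rpl22l1, the relative of the RNA-binding protein Rpl22, was nearly level, from 23.1% in macrophages to 29.5% in erythroid cells.

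The tissue-restricted copies had at most trace counts. Rpl3l, known from heart and skeletal muscle, had 26 UMIs in all kept cells, and Rpl39l, known from testis, had 33. In the wider gates Rpl3l had 10 UMIs in monocytes, 8 in neutrophils, 2 in B cells and 0 in T cells. Rpl10l, the testis copy of Rpl10, had 0. How the counting treated reads shared by near copies and pseudogenes is not given in the sources used here, so levels of these pairs are uncertain. A comparison of 1 pair between cell types rests on the same reads being assigned in the same way.

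**Figure D3:**
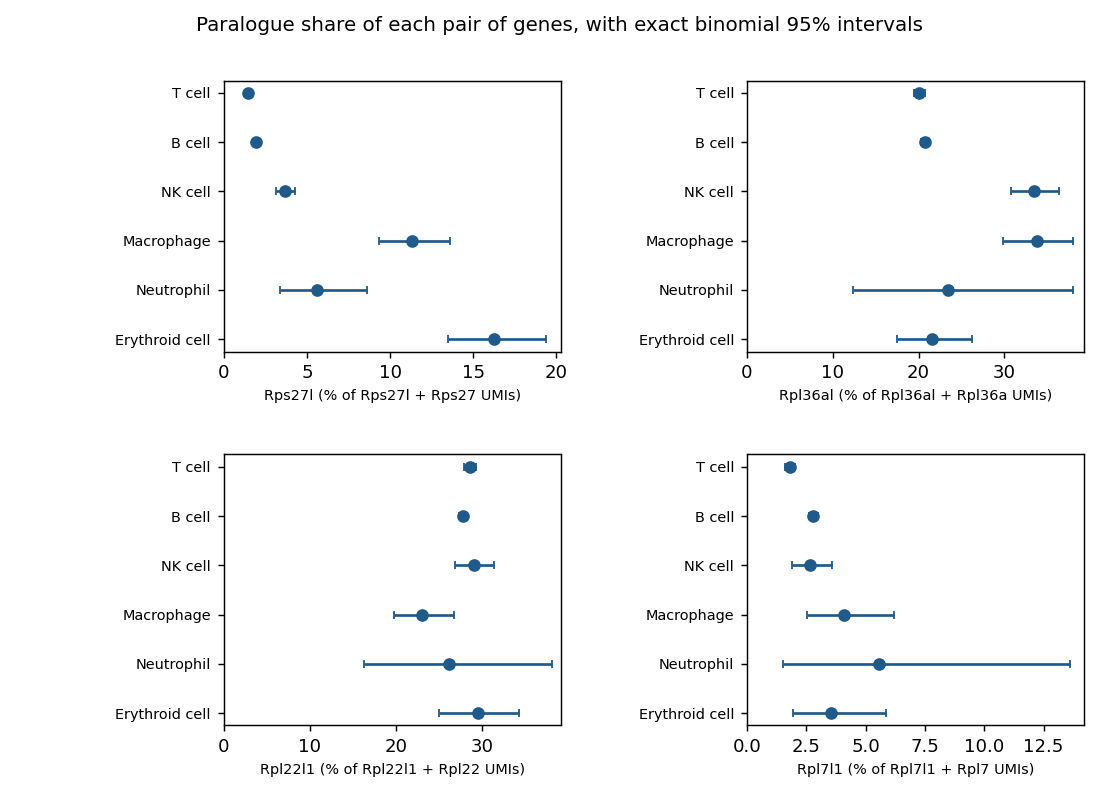
Share of each paralogue in the summed UMIs of the paralogue and its partner, in percent, in 6 lineage gates, with exact binomial 95% intervals. Rps27l runs from 1.47% in T cells to 16.3% in erythroid cells, Rpl36al is higher in NK cells and macrophages (33.5% and 33.8%), and Rpl22l1 stays between 23.1% and 29.5%.

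T cells held more ribosomal protein RNA than B cells, relative to all UMIs, and nearly every member took part. The summed level was 33.3% against 26.1% of UMIs, a log2 ratio of 0.35 (0.35 to 0.36). Of 81 members compared (all but Rpl10l, Rpl3l and Rpl39l), 78 were higher and 3 lower in T cells, with a median of 0.31 against -0.07 over all 8782 genes compared. Past 1.5-fold, 5 members were higher and 0 lower, where the background was 13.2% of genes higher and 19.1% lower. The shift was therefore broad and small, and few members passed the fold.

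The 5 were Rplp0, Rplp1, Rpl12, Rpl5 and Rps16. Rplp0, the base of the stalk, was at 5638 CPM in T cells and 3251 in B cells (log2 0.79, 0.77 to 0.82). Rplp1, which binds to it, was at 8672 and 5393 CPM (0.69). Rpl12, their neighbour, was at 5560 and 3477 CPM (0.68). Rplp2, named beside Rplp0 and Rplp1 in the rule, was not past 1.5-fold. Rpl5, the carrier of the smallest ribosomal RNA into the large subunit, had a ratio of 0.64, as did Rps16 of the small subunit.

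The 3 that were lower in T cells were Rpl7l1 (log2 -0.41, -0.61 to -0.20), Rps27l (-0.17) and Rps12. Rps12, a small-subunit protein, was at 4011 CPM in T cells and 4285 in B cells (-0.10). It made up 1.204% of the T cell pool and 1.642% of the B cell pool. Other TOP transcripts were mostly shifted like the members: their list of 14 had a median of 0.30. Tpt1, a growth-related protein, led it with 11222 CPM in T cells and 6174 in B cells (0.86). The elongation factor subunit Eef1b2 had 0.65 and Eef1a1 0.46. Of 35 ribosome biogenesis factors 2 passed 1.5-fold higher and 0 lower, with a median of 0.05.

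Effector-memory T cells had less ribosomal protein RNA than naive T cells across the set. The log2 ratio of the sums was -0.49 (-0.50 to -0.48). Of 80 members compared, 77 were lower, and the median was -0.46 against 0.13 over 2379 genes. Past 1.5-fold, 21 members were lower and 1 higher, where 8.79% of genes were lower and 16.9% higher.

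Rps29, a zinc-binding small-subunit protein, was at 4591 CPM in effector-memory and 8691 CPM in naive T cells (log2 -0.92, -0.999 to -0.843). Rps20 had -0.92, Rps19 -0.89, Rpl35 -0.85 and Rpl12 -0.82. The 1 member past 1.5-fold higher was Rps27l, at 174 CPM in effector-memory and 110 CPM in naive T cells (0.66, 0.19 to 1.11, 56 and 155 UMIs). Rpl36al (0.05, -0.19 to 0.28), Rpl29 (0.02) and Rpl27 (-0.02) had intervals that span 0. Relative to the pool, the log2 ratio was 1.15 for Rps27l and 0.53 for Rpl36al.

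The wider translation genes were not uniformly low in effector-memory cells. Eef1b2 had -0.76 and Tpt1 -0.49, while Pabpc1, the poly(A)-binding protein, had 0.08 (-0.11 to 0.26) and Eif5a, an elongation factor, 0.43 (0.14 to 0.70). Of 14 biogenesis factors with enough UMIs 5 were past 1.5-fold lower, among them Nop56, a core protein of the RNA-guided methylation complex (-1.37). Of 29 mitochondrial ribosomal protein genes 6 were past 1.5-fold higher and 0 lower, with a median of 0.09. Among all 2379 genes compared 16.9% were higher and 8.79% lower, with a median of 0.13.

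Plasma cells had a low share of ribosomal protein UMIs beside a large share of immunoglobulin UMIs, and most other genes were also lower. In the 8 gated cells the log2 ratio to B cells was -1.37 (-1.40 to -1.34), and 77 of 81 members were past 1.5-fold lower. The background was 68.9% of genes lower and 8.23% higher, and the member median of -1.35 was close to the -1.36 of all 8081 genes. That gene median counts genes with no UMIs in the 8 cells as lower, and over genes seen in both gates it was -0.79. With the wider gate the medians were -1.33 for members and -1.28 for all genes compared. Over UMIs outside haemoglobin, immunoglobulin and mt- genes the ratio was -0.39. In the wider gate of 50 cells (median 28745.5 UMIs) it was -1.34, and with each gated cell thinned to 1000 UMIs, so that cells weigh equally, -0.88.

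Members differed within that low pool. Rps27l was the 1 member past 1.5-fold higher, at 326 CPM against 142 in B cells (log2 1.197, 0.69 to 1.67, 37 UMIs). Rpl36al was at 660 against 465 CPM (0.51, 0.16 to 0.84). Rps27 was lowest at 1382 against 7052 CPM (-2.35, -2.59 to -2.12), and Rpl12 had -2.12. The wider gate gave the same directions, with Rps27l at 449 against 152 CPM and Rpl36al at 761 against 469 CPM. Rpl41, the shortest of the ribosomal proteins, and Rpl10 had -0.38 and -0.34.

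**Figure D4:**
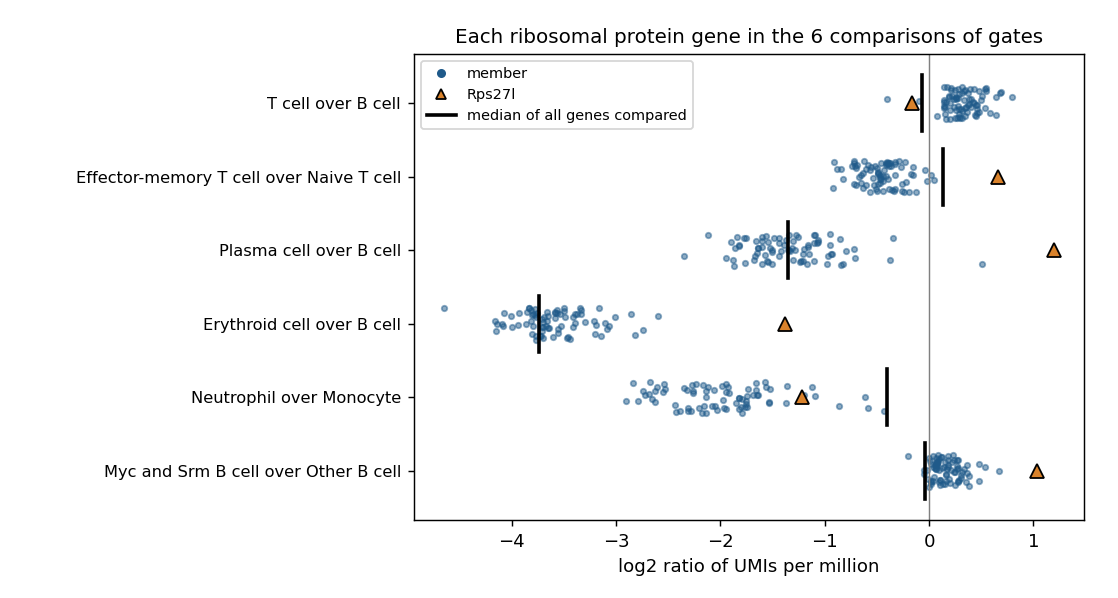
Log2 ratio of CPM of each member (blue points) in the 6 comparisons of gates, with Rps27l as an orange triangle and the median of all genes compared as a black bar. The members lie above the bar in T cells over B cells (median 0.31), below it in effector-memory over naive T cells (-0.46) and in neutrophils over monocytes (-1.98), and around it in plasma and erythroid cells. Rps27l is the rightmost member in 4 of the 6 rows, all but the T cell and neutrophil rows.

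In erythroid cells every member compared was low, as was nearly every other transcript. All 81 members compared were past 1.5-fold lower than in B cells, with a background of 94.5% lower and 3.36% higher. The log2 ratio of the sums was -3.62 (-3.63 to -3.60), and the member median of -3.65 stood beside -3.74 for all 8187 genes. With size factors set on the median gene the ratio was -0.08, so the members were low as far as the typical gene was. The ratio was -1.10 over UMIs outside haemoglobin, immunoglobulin and mt- genes, -2.18 in the 54 cells with at least 500 genes and -1.61 in the wider gate of 239 cells. In that gate 79 members were past 1.5-fold lower and 1 higher: Rps27l, at 261 CPM against 152 in B cells (0.79), where the main gate had -1.38.

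Early and late cells differed greatly. In 24 early erythroid cells, gated on Car1, Gata1, Tfrc, Myb and Kit, the members took 12.2% of UMIs and 23.8% of those outside haemoglobin, immunoglobulin and mt- genes. In 98 late cells with none of these markers, the values were 0.673% and 7.19%. The early cells were themselves mixed, with quartiles at 1.13% and 29.6%. The deepest of the 183 cells gave 28.0% of the gate's ribosomal protein UMIs.

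Rps27l (2.24 in log2 relative to the pool), Rpl41 (1.02), Rplp0 (0.88), Rps2 (0.80) and Rpl7a (0.76) were the members least reduced in erythroid cells. Rps27 (-1.03), Rps21 (-0.55), Rps24 (-0.53), Rps20 (-0.52) and Rpl12 (-0.47) were the most reduced. Rpl41 made up 1.86% of the B cell pool, 3.03% of the early (2.82 to 3.24) and 5.49% of the late erythroid pool (4.98 to 6.03). Rps2 did not share that order, at 2.19% in early and 1.30% in late cells.

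The 19 members on the list of Diamond-Blackfan anaemia genes, whose loss of 1 copy causes an inherited failure of red cell production, were all past 1.5-fold lower, like the rest of the set. Relative to the pool, Rpl31 (0.42, 0.16 to 0.67) and Rps26 (0.29) were among the highest on that list. Rps27 (-1.03), Rps24 (-0.53) and Rps28 (-0.47) were lowest, and Rps19, the gene most often affected in patients, was at -0.38 (-0.50 to -0.27). The list's median log2 ratio to B cells was -3.67, beside -3.65 for all members compared. All 77 mitochondrial ribosomal protein genes compared were also lower (median -2.82), as were all 35 biogenesis factors (median -3.18). Pabpc1 was the exception among the TOP transcripts, at 1881 against 754 CPM (1.32).

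Neutrophils had far less ribosomal protein RNA than monocytes, and here the members were lower than other genes. The log2 ratio was -1.81 (-1.84 to -1.78), between 56 neutrophils with a median of 2555 UMIs and 45 monocytes with 9031. The part of this depth gap in the ratio was not tested. Of 79 members compared 77 were past 1.5-fold lower and 0 higher, against 44.8% of genes lower and 27.1% higher, and the member median of -1.98 stood beside -0.40 for all 820 genes. Haemoglobin was 0.206% of neutrophil UMIs and the ratio was -1.84 over UMIs outside haemoglobin, immunoglobulin and mt- genes.

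The 2 members within 1.5-fold were Rps9, at 3353 CPM in neutrophils and 4516 in monocytes (-0.43, -0.57 to -0.29), and Rpl37, at 1793 and 2685 CPM (-0.58). Rps27 followed with -0.62, Rps27a with -0.86 and Rpl9 with -1.09. Among the lowest were Rps19 at 421 and 3143 CPM (-2.90, -3.28 to -2.54), Rpl36al (-2.84), Rpl3 (-2.79) and Rps28 (-2.74). In the wider gates, which hold more precursor-marked cells, all 81 members were past 1.5-fold lower, and the least reduced was at -1.25.

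Of the ribosomal subunits whose names fall outside the rule, Fau, made as a fusion of a ubiquitin-like protein and a small-subunit protein, was at 4926 CPM in neutrophils and 5542 in monocytes (-0.17, -0.29 to -0.05). Rack1, the signalling scaffold on the small subunit, had -2.57. Eef1a1 had -2.45 and Tpt1 -1.65. Fau thus stood with Rps9 and Rpl37 within 1.5-fold of monocytes, and Rack1 and the elongation factor with the reduced members.

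B cells with both Myc and Srm transcripts barely differed in ribosomal protein RNA from B cells with neither. Myc is the growth regulator and Srm, spermidine synthase, one of its known targets. The 131 cells with both held 27.3% and the 1507 with neither 24.96%, a log2 ratio of 0.13 (0.13 to 0.14). The member median was 0.15 against -0.04 over 7218 genes, and 2 of 81 members were past 1.5-fold higher and 0 lower, with 10.2% of genes higher and 11.9% lower. The cells with both were deeper, at a median of 7375 against 4725 UMIs, and B cells differed more than this between the ends of their depth range (22.9% and 28.9%). In cells with at most 5% mt- UMIs the ratio was 0.01 (-0.0055 to 0.025), from 17 and 129 cells.

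The 2 members were Rps27l, at 257 against 126 CPM (1.03, 0.83 to 1.22), and Rps2, at 4038 against 2538 CPM (0.67, 0.62 to 0.72). Rpl14 (0.48) and Rpl7l1 (0.48) were also among the highest. Rps27, the partner of Rps27l, was lowest at 6196 against 7140 CPM (-0.20, -0.24 to -0.17), so that Rps27l was 3.98% of the pair in these cells (3.53 to 4.47) and 1.73% in the others (1.62 to 1.84).

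The factors that build ribosomes behaved differently from the ribosomal proteins in the same cells. Of 31 biogenesis factors compared, 30 were past 1.5-fold higher and 0 lower, with a median of 1.25. Nop16, a nucleolar assembly factor, was at 62.8 against 16.8 CPM (1.90, 1.45 to 2.33), and Npm1, the abundant nucleolar chaperone, at 1590 against 674 CPM (1.24). Among elongation factors 6 of 10 were higher, led by Eif5a at 821 against 333 CPM (1.30), which is the protein modified with spermidine. Among initiation factors 10 of 30 were higher, led by the helicase Eif4a1 at 564 against 240 CPM (1.23). Of mitochondrial ribosomal protein genes 18 of 75 were higher (median 0.35), and of the 19 Diamond-Blackfan members 0. The cells were gated on Myc and Srm, and their greater depth was not separated from these list values.

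**Figure D5:**
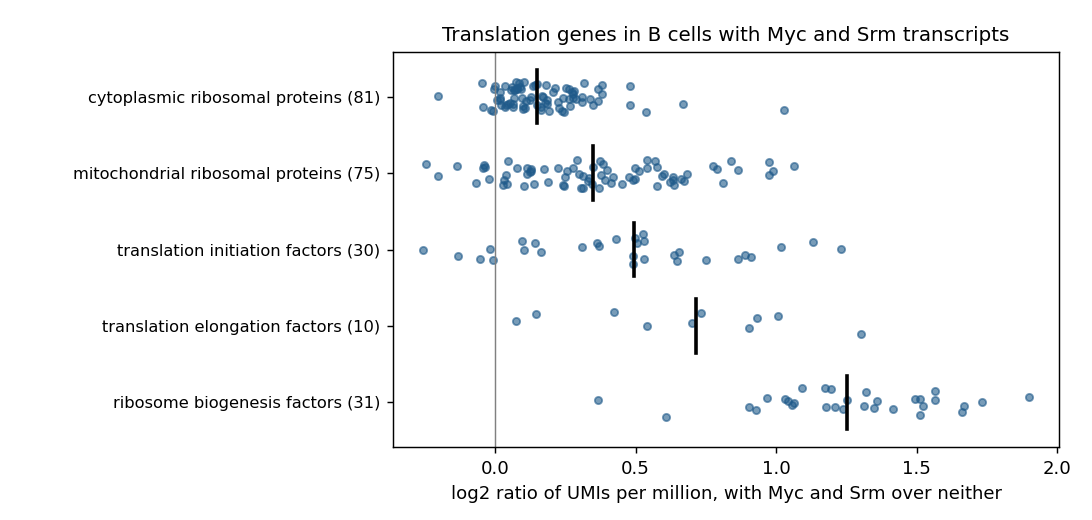
Log2 ratio of CPM in B cells with Myc and Srm transcripts over B cells with neither, for each gene of 5 lists, with the list median as a bar and the number of genes compared in brackets. Ribosomal proteins centre on 0.15, mitochondrial ribosomal proteins on 0.35, and biogenesis factors on 1.25.

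The genes outside the set whose level followed the summed members most closely over the 6 gates are named here by rule. Likeness was Pearson's r between log2 CPM of the gene and of the sum over 6 gates, among 2395 genes with at least 50 CPM in all cells, and is a description with no test. The closest 10 were Naca, Ifi213, Tomm20, Abce1, Eif3e, Llph, Eef1b2, Ptbp1, Wdr43 and Nop58, with r from 0.997 to 0.988. Some of these r values rest on very few UMIs in single gates. Ifi213 was at 0.531 CPM in erythroid cells and 6.47 CPM in neutrophils, and Abce1 and Wdr43 were at 12.9 CPM in neutrophils. Naca, a chaperone of new chains at the ribosome, ran from 1258 CPM in T cells through 1025 in B cells to 220 in neutrophils and 104 in erythroid cells. The 6 gates differed in depth, from a median of 799 UMIs in macrophages to 11450 in erythroid cells, where haemoglobin took 83.4% of UMIs. Of the genes compared, 94.5% were past 1.5-fold lower in erythroid than in B cells. The part of this in the r values was not tested. Of the members above trace counts, the least like the sum were Rps27l (0.67), Rps9 (0.81) and Rps27a (0.91).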

How the data were processed

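The authors deposited 1 table of whole-number UMI counts per gene symbol and cell barcode, with no normalization. Per the labels' protocols, single-cell 3-prime libraries were sequenced on a HiSeq4000 or NovaSeq instrument and mapped to mm10-3.0.0. The mapping and counting program is not given in the sources used here, nor is the treatment of reads shared by near copies. All values were whole, and nothing ties the 7524 barcodes to the 2 samples.

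Barcodes under 200 genes (101) or over 10% mt- UMIs (857) were removed, and doublets (Scrublet in scanpy 1.11.5) were kept except in an alternative. The 6588 kept cells held 44751473 UMIs. Counts were summed per gate and scaled to 1000000 (CPM). Cells are not replicates, so ratios carry exact conditional binomial 95% intervals, shares exact binomial (Clopper-Pearson) and CPM exact Poisson intervals, all for counting error only. Free RNA in droplets was not removed, and its part was not tested. Genes were compared with at least 100 UMIs over both gates, and past 1.5-fold was counted. The ratio step was tested on simulated data.

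Members and gene lists were chosen with earlier results of these data known. Named were the 5 highest and 5 lowest members per comparison relative to the pool, the unequal members, the paralogues, 3 highest and 3 lowest Diamond-Blackfan members, leading list genes and the 10 most alike genes. Rpl37a, Rps19 in erythroid cells, Rack1 and Pabpc1 were added after their values were seen. A few genes that this rule names are not reported here. Coordinates and starts came from GENCODE vM21 and RefSeq (GRCm38.p6), and 64 of 84 members had a start. Alternatives changed the denominator, size factors, gates, mt- maximum, gene minimum, doublets and depth.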

Additional observations from a re-analysis of the deposited data

How the results depend on the processing

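None of the 6 summed ratios changed sign under the alternatives run, while single members did: Rps27l in erythroid over B cells went from -1.38 to 0.79 in the wider gate. For plasma over B cells with at least 2 own markers the counting interval spanned 0 (-0.143 to 0.070). So did that of Myc and Srm B cells at 5% mt- UMIs (-0.0055 to 0.025). Intervals cover counting error only; with 1 pooled table no difference has a replicate check. No paired analysis was possible because no barcode could be tied to a sample. Over UMIs outside haemoglobin, immunoglobulin and mt- genes, the log2 ratio was 0.29 for T over B cells, -0.39 for plasma over B, -1.10 for erythroid over B and 0.12 for Myc and Srm B cells. With median-of-ratios size factors, the ratios were 0.42 (T over B), -0.62 (effector-memory over naive), -0.58 (plasma), -0.083 (erythroid), -1.43 (neutrophil over monocyte) and 0.17 (Myc and Srm). With at least 2 own markers and none of another lineage, they were 0.26, -0.55, -0.036 (1 plasma cell), -3.96, -2.41 and 0.10 in that order, and 2 members were unequal over the 4 gates left. With at most 5% mt- UMIs, T over B was 0.22, plasma -1.52, erythroid -4.41 and Myc and Srm 0.0099. With cells thinned to 1000 UMIs, the 6 ratios were 0.36, -0.52, -0.88, -2.99, -1.85 and 0.10. With at least 500 genes, plasma was -1.42 (7 cells) and erythroid -2.18 (54 cells). Without Scrublet calls, which removed 1 neutrophil, neutrophil over monocyte was -2.02 and 12 members were unequal. The wider gate, chosen after gate sizes were seen, gave 0.30 (T over B), -0.57 (effector-memory), -1.34 (plasma), -1.61 (erythroid) and -2.02 (neutrophil). It had 5 unequal members of 82, over 8 gates where the main setting had 6. Only Rps27l and Rpl7l1 were unequal in both. The others were Rplp1, Rpl36al (in plasma cells) and Rpl3l, which had 2 UMIs in B cells. Another 20 values moved by less than their intervals or, for counts, by at most 1.5 times.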
